A study of Homo sapiens with 16 samples.

Results

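RNA-seq of untreated cells of Jurkat E6-1, an established human T cell leukaemia line whose cell type the labels give as lymphoma, was compared between 2 batches. The groups were 4 untreated libraries of batch 1 and 4 of batch 2, which are 8 of the 16 libraries in the series. All 8 came from wild-type cells with no treatment, collected at 0 h, and were chosen as the control libraries of the labels, split by the batch in the name under which each table was deposited. The 8 libraries of cells given 10 µM hydrogen peroxide were not used here. Both batches share the same labelled medium, RPMI with fetal bovine serum, and the labels make no distinction between them. The labels do not say what distinguishes the batches, so culture, cell stock, harvest, RNA isolation, library preparation and sequencing run cannot be told apart as differences between the batches. The labels call the libraries biological replicates, but nothing says that they came from separate cultures, so p-values measure the spread between these libraries, which may be partly technical. Control replicates 1 to 4 are batch 1 and replicates 5 to 8 are batch 2, and values are given in that order throughout.

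Several well-studied programmes of gene regulation bear on cultured lymphocytes without any added agent. In the amino acid response, uncharged tRNA or other stress leads to phosphorylation of the translation factor eIF2, which favours translation of the transcription factor ATF4, and ATF4 then drives genes for amino acid uptake, synthesis and tRNA charging. Heat shock factor 1 drives cytosolic chaperones when unfolded protein accumulates. SREBP2 drives cholesterol synthesis and uptake when membrane sterol is low.

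Each library held between 5556553 and 15720881 reads in genes, and no difference in this total was detectable between batches (exact permutation p = 0.6, two-sided, n = 4 each). Reads not aligned uniquely made up 47.2% of counted reads in control 1 and 30.2% to 33.7% in the other libraries. All 21 T cell markers reached 1 CPM (read counts scaled to library size, here with TMM factors), and their summed level ran from 6562 to 6989 CPM in batch 1, against 6590 to 6781 CPM in batch 2. TRBV12-3, the beta chain variable gene that dominated in every library, held 79.9% to 90.5% of reads on TRBV genes, and TRAV8-4 held 71.5% to 79.6% of reads on TRAV genes. Their mean levels went opposite ways. TRBV12-3 was 253 ± 83.4 CPM in batch 1 and 138 ± 20.4 CPM in batch 2 (SD, n = 4 each). TRAV8-4 was 30.1 ± 3.05 CPM in batch 1 and 46.7 ± 10.9 CPM in batch 2. Markers of other lineages were scarce: 5 of 17 B cell markers reached 1 CPM (summed level 66.2 to 81.3 CPM in batch 1, against 87.4 to 110.1 CPM in batch 2), as did 2 of 17 myeloid markers (122 to 164 against 70.7 to 82.4 CPM), 3 of 15 erythroid and megakaryocyte markers (14.6 to 19 against 20.7 to 23.7 CPM), 7 of 18 natural killer and cytotoxic markers (44.3 to 68.1 against 48.5 to 98.4 CPM) and 3 of 20 epithelial and fibroblast markers (46.3 to 53.1 against 42.3 to 60.9 CPM). CSF3R, FCGR1A, S100A8, ELANE and SPI1 of the myeloid list, HBB and ALAS2 of the erythroid list and EPCAM and COL1A2 of the epithelial and fibroblast list had 0 reads in all 8 libraries. Their part in the differences below was not tested.

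The batches of untreated cells differed across a large part of the expressed genes. Amino acid response genes were higher in batch 2, while chaperones, cholesterol synthesis enzymes, tubulins, glycolytic enzymes, proteasome subunits and ribosomal proteins were lower. Of 14187 genes tested with edgeR's quasi-likelihood test, 3353 (23.6%) were higher and 3188 (22.5%) lower in batch 2 at a Benjamini-Hochberg adjusted p under 0.05, together 46.1%. Of these, 679 (4.79% of genes tested) were at least 2-fold higher and 206 (1.45%) at least 2-fold lower, together 885 (6.24%). An unadjusted p under 0.05 was reached by 7494 genes (52.8%). In 2992 genes (21.1%) all 4 libraries of batch 2 lay above all 4 of batch 1, and in 2919 (20.6%) all lay below. The first principal component separated the batches and held 62.5% of the variance. The biological coefficient of variation among the 4 libraries was 10.0% in batch 1 and 8.67% in batch 2.

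The direction of small differences depends on scaling. With libraries scaled by total count in place of TMM, 4817 genes were higher and 1974 lower, and the median log2 fold change of all genes was 0.14 in place of 0.01, a shift of 0.13. TMM factors were 0.938 to 0.964 in batch 1 and 1.03 to 1.06 in batch 2. Reads were less concentrated in batch 2: the 100 most abundant genes held 13.6% ± 0.344 of reads in batch 1 and 11.8% ± 0.402 in batch 2 (SD, n = 4 each; two-sided exact permutation p = 0.0286, which is the lowest the design allows, and 0.0686 adjusted over 12 library measures). Genes at 1 CPM or more numbered 13788.5 ± 31.5 in batch 1 and 14421 ± 113 in batch 2 (same exact permutation p). For this count alone CPM was scaled by total count without TMM factors, so the gap depends on scaling too. Reads on long noncoding RNAs made up 1.30% ± 0.0179 in batch 1 and 1.63% ± 0.0286 in batch 2. The median log2 fold change was 0.18 in the fifth of genes with the lowest mean level and -0.15 in the fifth with the highest. Among the former 23.1% were called higher and 6.98% lower, and among the latter, the most abundant genes, 14.5% higher and 46.0% lower. Lists of abundant genes are to be read against those shares as well. Lists are described by counts and medians beside these backgrounds, and a count near 23.6% or 22.5% is not a result about a list. List counts with total-count scaling have another background, 4817 genes higher and 1974 lower of 14187. More rises than falls in a list with that scaling are therefore not by themselves a reversal. In bulk RNA, fewer cells with a transcript and less of it per cell cannot be told apart.

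**Figure D1:**
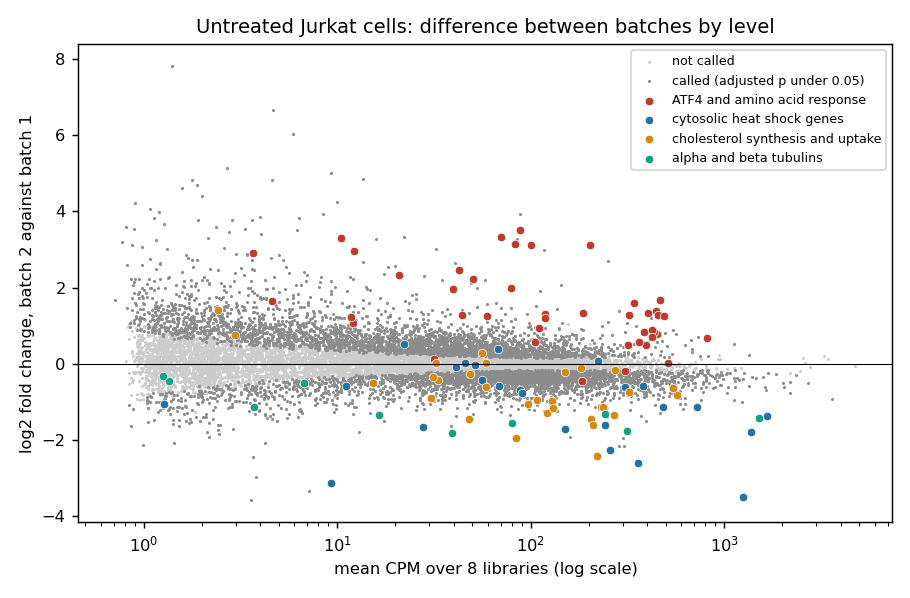
Log2 fold change of batch 2 against batch 1 (y axis) against the mean CPM over 8 libraries (x axis, log scale) for the 14187 genes tested, with 4 gene lists in colour. Most ATF4 and amino acid response genes lie above 0, while most heat shock, cholesterol and tubulin genes lie below, HSPA8 lowest among the coloured genes at -3.48.

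Of 43 tested members of the ATF4 and amino acid response list, 39 rose (90.7%, against 23.6% of all genes), 2 fell and 2 were not called, and the median log2 fold change was 1.29. The libraries of the batches did not overlap for any of the 39, and 28 were at least 2-fold higher. The transcript of ATF4 itself measured 501, 548, 507 and 471 CPM in batch 1 and 493, 543, 519 and 500.1 CPM in batch 2; the log2 fold change was 0.02 (SE 0.06, adjusted p = 0.807). The 2 batches overlapped for ATF4, whose activity is set largely at translation. CHAC1, which degrades glutathione, measured 9.42, 5.58, 27.5 and 11.8 CPM in batch 1 and 122, 236, 177 and 115 CPM in batch 2. Every library of batch 2 was above every library of batch 1, and the log2 fold change was 3.51 (SE 0.33, adjusted p = 2.94e-06). The 12 largest rises, here CHAC1 and STC2, and the 12 largest falls were named only where the batches did not overlap. STC2, a secreted glycoprotein of the stress response, was 10.2, 12.7, 16.4 and 11.8 CPM in batch 1 and 119, 117, 136 and 139.9 CPM in batch 2, a log2 fold change of 3.32. SESN2, a leucine sensor that restrains mTORC1, was 15.4, 18.7, 18.2 and 16.1 CPM in batch 1 and 146, 150.3, 144 and 155 CPM in batch 2. Its spread within each batch was small against the gap between them, and its log2 fold change was 3.13 (SE 0.08).

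Transcription factors and regulators of the list rose with its enzymes. DDIT3, which encodes CHOP, was 5.68, 9.24, 5.61 and 8 CPM in batch 1 and 36.1, 35.1, 36.9 and 30.4 CPM in batch 2. TRIB3, a pseudokinase induced by ATF4 and CHOP, was 40.1, 36.8, 50.8 and 41 CPM in batch 1 and 226, 421, 541 and 273 CPM in batch 2. Both were non-overlapping, with log2 fold changes of 2.34 and 3.11. JDP2 (2.95), CEBPB (2.45), ATF5 (1.99), ATF3 (1.96) and CEBPG (1.21) are bZIP factors of the list and rose as log2 fold changes. PPP1R15A, the eIF2 phosphatase subunit that ends the response, rose by 1.29. DDIT4 did not pass the test, at a log2 fold change of 0.14.

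**Figure D2:**
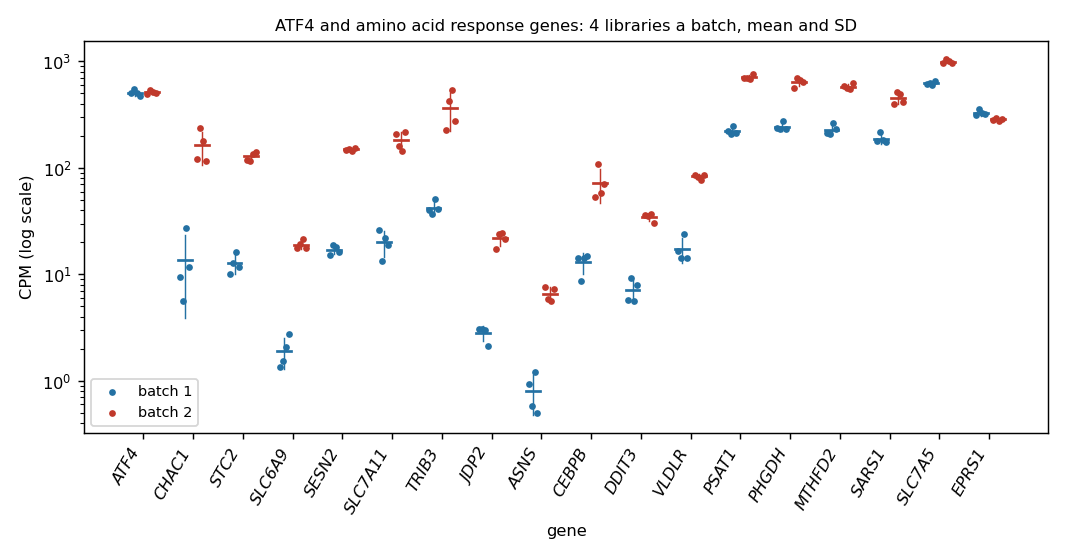
CPM (y axis, log scale) of 18 members of the ATF4 and amino acid response list (x axis) in the 4 libraries of batch 1 (blue) and of batch 2 (red), with the mean (bar) and SD (line) per batch. ATF4 overlaps between batches, EPRS1 is lower in batch 2 and the other 16 genes are higher there.

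Transporters and biosynthetic enzymes made up most of the rest. The cystine transporter SLC7A11 was 26.1, 13.3, 21.8 and 18.9 CPM in batch 1 and 206, 159, 144 and 217 CPM in batch 2. The glycine transporter SLC6A9 (3.31), the neutral amino acid transporters SLC1A5 (1.61) and SLC1A4 (1.30) and the large neutral amino acid transporter pair SLC3A2 (1.29) and SLC7A5 (0.67) rose on the log2 scale. ASNS, asparagine synthetase, was 0.933, 0.577, 1.22 and 0.5 CPM in batch 1 and 7.65, 5.88, 5.61 and 7.22 CPM in batch 2, all 4 libraries of batch 2 being higher. In the serine pathway PHGDH was 235, 229.7, 277 and 232 CPM in batch 1 and 562, 694, 665 and 643 CPM in batch 2, and PSAT1 (1.68), PSPH (1.26), SHMT2 (0.83) and MTHFD2 (1.34) rose with it. ALDH18A1, of proline synthesis, went against the list and fell by 0.45 on the log2 scale, while PYCR1, the last enzyme of the same route, rose by 0.93. Outside the list, 3 further enzymes of amino acid or mitochondrial carbon metabolism were among the largest differences or were picked after their values were seen. ASS1, argininosuccinate synthase, was 9.67, 8.27, 14.7 and 10.4 CPM in batch 1 and 118, 192, 222 and 132 CPM in batch 2. GPT2, mitochondrial alanine aminotransferase, was 14.4, 12.7, 20.5 and 14.6 CPM in batch 1 and 147, 153, 144 and 170.5 CPM in batch 2. PCK2, mitochondrial phosphoenolpyruvate carboxykinase, rose by 2.99, and none of the 3 overlapped between batches. For ASS1 and GPT2 the naming rule required this.

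The tRNA synthetases, which load amino acids onto tRNA, went both ways, with a median over 37 of -0.12, and 0.01 with total-count scaling. Of 20 cytosolic synthetases, 12 rose and 7 fell (median 0.37), while of 17 mitochondrial synthetases 1 rose and 10 fell (median -0.35); this split was made after the values were seen. CARS1 was 107, 104, 114 and 99.1 CPM in batch 1 and 254, 291, 262 and 266 CPM in batch 2, and AARS1 was 262, 291, 327 and 277 CPM in batch 1 and 622, 755, 703 and 663 CPM in batch 2. SARS1 (1.28), GARS1 (0.90), MARS1 (0.82) and YARS1 (0.70) also rose, all as log2 fold changes. HARS1, RARS1, KARS1, VARS1, EPRS1, FARSA and FARSB are the 7 cytosolic ones that fell, HARS1 the most at -0.61. EIF4EBP1, a repressor of cap-dependent translation, rose by 1.98. By contrast 29 of 46 translation factors fell (63.0%, against 22.5% of all genes, median -0.25) and 3 rose, or 16 and 6 with total-count scaling.

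Promoter sequence was read for the genes of this group from RefSeq windows of GRCh38.p14, which run from 250 bases before to 50 after the first-listed start site. The letters TGATGNAA, the core of the C/EBP-ATF response element bound by ATF4 with a C/EBP partner, were searched on both strands. They occurred in 9 of 38 windows of the list (23.7%) and in 3.67% of all 27305 windows. The genes with a match were CHAC1, ASNS, SLC7A1, SLC3A2, AARS1, NARS1, CARS1, TARS1 and ATF3. In SLC7A1, SLC3A2, NARS1 and TARS1 the match lay after the start site, and in CARS1 it spanned that site. Motifs and the promoters shown were picked after the values were seen, and a match is a description of letters only. The lists searched here and below were drawn up for these responses, and the background is every window, not those of genes tested. The shares therefore say nothing about the batch difference. The bases before the start site of 3 of these genes are printed 5′ to 3′ on the strand of the gene, with the match in capitals, because they show the element upstream of genes that were high in batch 2. In ASNS the match overlaps the letters GAANNTTC searched below.
CHAC1, chr15:40953221-40953470, plus strand: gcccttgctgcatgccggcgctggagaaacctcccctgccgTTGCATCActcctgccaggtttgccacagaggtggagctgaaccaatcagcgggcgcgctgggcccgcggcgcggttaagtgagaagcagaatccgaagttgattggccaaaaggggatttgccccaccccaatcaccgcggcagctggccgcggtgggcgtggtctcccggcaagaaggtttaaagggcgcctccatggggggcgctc
ASNS, chr7:97872409-97872658, minus strand: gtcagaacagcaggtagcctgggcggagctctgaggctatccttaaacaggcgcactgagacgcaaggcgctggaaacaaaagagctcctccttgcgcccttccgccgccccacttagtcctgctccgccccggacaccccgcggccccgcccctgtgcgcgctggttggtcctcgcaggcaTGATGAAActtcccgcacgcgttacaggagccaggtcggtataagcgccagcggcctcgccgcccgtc
AARS1, chr16:70289507-70289756, minus strand: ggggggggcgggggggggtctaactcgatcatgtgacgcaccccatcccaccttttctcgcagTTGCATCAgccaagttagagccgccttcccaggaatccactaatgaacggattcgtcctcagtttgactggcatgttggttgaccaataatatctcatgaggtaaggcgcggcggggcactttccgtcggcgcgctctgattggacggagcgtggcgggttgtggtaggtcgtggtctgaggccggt
The match starts 209 bases before the start site in CHAC1, 68 in ASNS and 187 in AARS1.

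Cytosolic chaperones moved the other way. Of 26 tested heat shock genes, 19 fell (73.1%, against 22.5% of all genes), 2 rose and 5 were not called, with a median log2 fold change of -0.90, and 13 were at least 2-fold lower. Together the list held 1.16% ± 0.216 of reads in genes in batch 1 and 0.449% ± 0.0627 in batch 2 (SD, n = 4 each). HSPA8, the constitutive HSC70 chaperone, was 1233, 3202, 2089.6 and 2709.8 CPM in batch 1 and 277, 181, 179 and 190.4 CPM in batch 2. Even the lowest library of batch 1 was above all of batch 2, and the log2 fold change was -3.48 (SE 0.24, adjusted p = 2.16e-07). Within batch 1 control 1 was lowest for HSPA8, DNAJA1, HSPH1 and DNAJB1, and it is also the library with the most reads not aligned uniquely; 19 of the 26 also fell in the fit without it and control 8. DNAJA1, an HSP40 co-chaperone, was 439, 798, 573 and 658 CPM in batch 1 and 109, 100.2, 103 and 93.3 CPM in batch 2. HSPH1, a nucleotide exchange factor of HSP70, was 287, 481, 431 and 502 CPM in batch 1 and 112, 75.7, 75.7 and 94.1 CPM in batch 2. Both were separated by batch, with log2 fold changes of -2.60 and -2.26. HSPA8, DNAJA1 and HSPH1 are among the 12 largest falls, for which the naming rule required this separation. HSP90AA1 (-1.80), DNAJB1 (-1.72), the mitochondrial chaperonin pair HSPE1 (-1.67) and HSPD1 (-1.14) and the HSP90 co-chaperone AHSA1 (-1.61) also fell. HSPA1B was 3.99, 21.7, 17.1 and 24.4 CPM in batch 1 and 2.17, 1.76, 1.76 and 1.75 CPM in batch 2, but it has a near-identical copy, HSPA1A, and HSPA8 has processed copies such as HSPA8P1, so reads that fit several of them would not be counted and their levels are uncertain. The factor HSF1 (0.07) and its targets BAG3 (-0.08) and HSPB1 (-0.04) did not pass the test. SERPINH1, a collagen chaperone of the endoplasmic reticulum, and DNAJB2 rose by 0.52 and 0.38.

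In the same windows, the heat shock element core GAANNTTC was found in 7 of 24 heat shock genes (29.2%) and in 6.87% of all windows, and the inverted form TTCNNGAA in 5 of 24 (20.8%) and in 7.84% of all. Both forms read the same on both strands, and a run of the element holds overlapping matches of both. HSPB1, which was not called, and SERPINH1, which rose, also held a match to GAANNTTC. HSPA8, HSPA1B and DNAJA1 fell most among genes with a match, and the bases before the start sites of HSPA8 and DNAJA1 are printed with GAANNTTC in capitals.
HSPA8, chr11:123062137-123062386, minus strand: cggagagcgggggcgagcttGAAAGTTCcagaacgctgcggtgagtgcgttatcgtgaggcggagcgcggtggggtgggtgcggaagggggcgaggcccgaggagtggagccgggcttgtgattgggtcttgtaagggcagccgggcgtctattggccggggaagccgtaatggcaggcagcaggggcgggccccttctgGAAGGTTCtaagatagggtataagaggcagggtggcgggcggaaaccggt
DNAJA1, chr9:33025023-33025272, plus strand: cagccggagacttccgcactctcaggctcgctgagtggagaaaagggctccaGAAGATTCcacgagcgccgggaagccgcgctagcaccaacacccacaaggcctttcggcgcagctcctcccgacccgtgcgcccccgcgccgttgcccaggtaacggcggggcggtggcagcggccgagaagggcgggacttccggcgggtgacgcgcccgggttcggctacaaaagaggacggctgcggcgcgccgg
Each HSPA8 match overlaps a match to TTCNNGAA. The sterol response element core TCACNCCAC was found in 1 of 23 windows of the cholesterol list, that of SREBF2 (4.35%, against 1.15% of all windows), and no match says only that these letters are not in the window.

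Genes of the endoplasmic reticulum and its unfolded protein response went both ways. Of 41 genes, 16 fell (39.0%) and 6 rose (14.6%), while 12 fell and 12 rose with total-count scaling (median -0.07, and 0.06 with total-count scaling). HSPA5, the BiP chaperone, was 349.7, 621, 408 and 529.6 CPM in batch 1 and 138, 126, 131 and 101 CPM in batch 2. HSP90B1 (-1.29), MANF (-1.15) and the disulfide isomerase PDIA4 (-1.06) fell with it, all on the log2 scale. The 6 that rose were ERN1 (1.59), which encodes the stress sensor IRE1, HERPUD1 (0.93), EDEM1 (0.70), DNAJB9 (0.37), SEL1L (0.30) and ATF6 (0.20), of which HERPUD1, EDEM1 and SEL1L act in degradation of misfolded protein.

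Cholesterol synthesis genes were lower in batch 2. Of 30 tested, 22 fell (73.3%), 2 rose and 6 were not called, with a median of -0.78, and 11 were at least 2-fold lower. HMGCS1, an early enzyme of the mevalonate route, was 329, 326, 439.9 and 390.3 CPM in batch 1 and 126, 42, 46.1 and 69.4 CPM in batch 2. SQLE, squalene epoxidase, was 163, 182, 166 and 174 CPM in batch 1 and 98.7, 55.5, 57 and 73.4 CPM in batch 2. INSIG1, which retains the SREBP complex in the endoplasmic reticulum, was 351, 299, 492 and 407 CPM in batch 1 and 253, 111, 92.2 and 159 CPM in batch 2. In these 3 genes controls 6 and 7 were lowest and control 5 highest within batch 2, and all 4 libraries of batch 2 were below batch 1. Log2 fold changes were -2.42 (SE 0.26), -1.28 (SE 0.14) and -1.34 (SE 0.25). ACAT2 (-0.99) and SREBF2 (-0.74), which encodes SREBP2, fell as well. The 2 that rose were ABCA1 (1.40), which exports cholesterol, and MYLIP (0.75), a ubiquitin ligase; both are targets of liver X receptors. Without controls 6 and 7, 19 members were lower in place of 22.

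Genes of fatty acid and triglyceride synthesis went both ways. FASN, fatty acid synthase, was 514, 475, 575 and 584 CPM in batch 1 and 273, 163, 186 and 211 CPM in batch 2. ACLY (-0.81), ACACA (-0.73) and SCD (-0.91) also fell, while 3 genes of triglyceride assembly, AGPAT2 (0.36), LPIN1 (0.33) and LPIN2 (0.24), rose. Over 21 genes of the list, 7 fell (33.3%) and 3 rose, while 5 fell and 8 rose with total-count scaling (median -0.12, and 0.01 with total-count scaling).

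**Figure D3:**
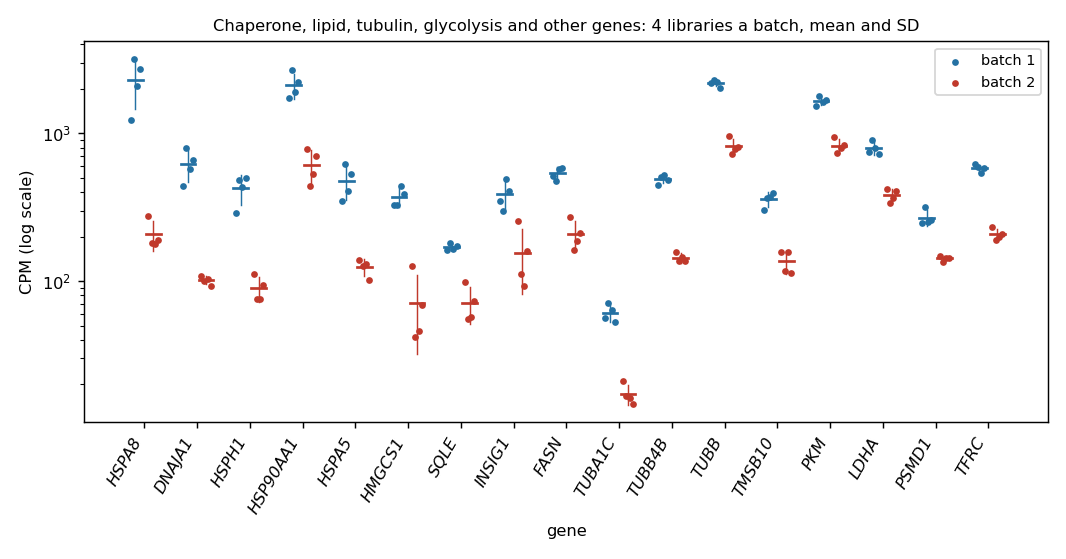
CPM (y axis, log scale) of 17 genes (x axis) in the 4 libraries of batch 1 (blue) and of batch 2 (red), with the mean (bar) and SD (line) per batch. All 17 are lower in batch 2, and for HMGCS1 control 5 is the highest library of batch 2.

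Tubulins had the lowest median of the lists described, -1.33. Of 10 tested alpha and beta tubulins 8 were lower (80.0%, against 22.5% of all genes), 7 of them at least 2-fold, and 2 were not called. TUBB4B was 449, 505, 520.5 and 483 CPM in batch 1 and 157, 136, 145 and 136 CPM in batch 2, and TUBA1C was 56.6, 70.6, 63.8 and 52.6 CPM in batch 1 and 21, 16.7, 16.3 and 14.8 CPM in batch 2. TUBB (-1.42), TUBA1A (-1.56) and TUBA1B (-1.32) fell on the log2 scale, and the 2 not called, TUBA3D and TUBB1, had means of 1.36 and 1.26 CPM. Tubulin genes are similar in sequence, so counts of single members are uncertain. In the actin list 23 of 36 fell (63.9%, against 22.5% of all genes and 46.0% among the most abundant genes) and 3 rose. With total-count scaling 19 fell and 5 rose. Among those that fell were TMSB10 (-1.40) and TMSB4X (-1.21), which bind actin monomers, and ACTB (-0.93). The 3 that rose were ZYX (0.58), TAGLN (0.35) and RHOH (0.19).

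Genes of glycolysis were mostly lower: 16 of 20 genes fell (80.0%), 0 rose and 4 were not called, with a median of -0.53. LDHA, lactate dehydrogenase A, was 751, 899.7, 799 and 725 CPM in batch 1 and 420.2, 340.1, 365 and 405 CPM in batch 2. PKM (-1.01), PFKP (-0.96), PGK1 (-0.95) and GAPDH (-0.47) fell on the log2 scale. Of 33 hypoxia response genes, 9 fell (27.3%) and 3 rose, while 4 fell and 7 rose with total-count scaling (median -0.10, and 0.03 with total-count scaling). The 3 that rose were VEGFA, at 4.67, 6.16, 10.6 and 7 CPM in batch 1 and 52.6, 61.9, 63 and 53.6 CPM in batch 2, VLDLR (2.24) and MXI1 (0.60), and VLDLR is also on the ATF4 list.

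Transcripts of most proteasome subunits were lower. Of 38 genes 32 fell (84.2%), with a median of -0.50 and 0 past 2-fold. By role, 12 of 14 subunits of the 20S core, 15 of 18 of the 19S regulatory particle and all 4 PSME activators fell. PSMD1 was 248, 316, 252 and 261 CPM in batch 1 and 149, 134, 144 and 144 CPM in batch 2. NFE2L1, a transcription factor of proteasome genes, was the 1 member that rose (0.27). The ubiquitin precursor UBB was 237, 299, 259 and 221 CPM in batch 1 and 76.5, 55.6, 72.4 and 64.2 CPM in batch 2. Its log2 fold change was -1.92, and the gene is built of near-identical ubiquitin repeats.

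Genes of the peroxide and superoxide enzyme list were mostly lower in batch 2 before any peroxide was given. Of 25 peroxide and superoxide enzymes, 15 fell (60.0%) and 4 rose. PRDX1, a peroxiredoxin, was 461, 567, 420.2 and 430.1 CPM in batch 1 and 128, 84.2, 101 and 106 CPM in batch 2. SOD1, cytosolic superoxide dismutase, was 415, 528, 421 and 399 CPM in batch 1 and 251, 194, 202 and 235 CPM in batch 2. All 4 libraries of batch 2 were lower for both genes, with log2 fold changes of -2.17 and -1.0. TXN (-0.89), TXNRD1 (-0.64) and CAT, catalase (-0.32), fell too. The 4 that rose were SESN2, MSRB2 (0.64), SESN3 (0.59) and TXNRD2 (0.40). Of 25 NRF2 targets, 16 fell (64.0%) and 2 rose, or 13 and 3 with total-count scaling. The 2 were SLC7A11, which is shared with the ATF4 list, and BLVRB (0.50). NFE2L2, which encodes NRF2, and GCLM were not called, at 0.11 and 0.10. Of the iron genes, the transferrin receptor TFRC was 618, 591, 542 and 583 CPM in batch 1 and 232, 189.6, 199 and 209 CPM in batch 2, a log2 fold change of -1.49.

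Genes of ribosome synthesis and translation were lower by smaller amounts. Of 54 nucleolar ribosome biogenesis genes 41 fell (75.9%) and 0 rose, with a median of -0.39, though 27 fell with total-count scaling and 24 without controls 6 and 7. Of 85 cytosolic ribosomal proteins 68 fell (80.0%) and 0 rose, with a median of -0.33, and 40 fell with total-count scaling. NOP56, a box C/D snoRNP protein, was 512, 593, 421 and 457 CPM in batch 1 and 297, 271, 282 and 328 CPM in batch 2. Ribosomal proteins have many processed copies, and reads that fit several are not counted, so their single values are uncertain. MYC was 301, 388, 298 and 371 CPM in batch 1 and 255, 169.7, 212 and 233 CPM in batch 2, with a log2 fold change of -0.64 (adjusted p = 0.000600). The snoRNA host genes, several of which have spliced transcripts known to be degraded when translated, went the other way: of 14 SNHG, GAS5 and ZFAS1 genes 10 rose and 2 fell, a grouping made after the values were seen. SNHG1 was 263, 220.1, 225 and 224 CPM in batch 1 and 447, 437, 441 and 548 CPM in batch 2, SNHG32 rose by 1.47 and ZFAS1 by 0.96, and the 2 that fell were SNHG3 (-0.70) and SNHG16 (-0.68).

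**Figure D4:**
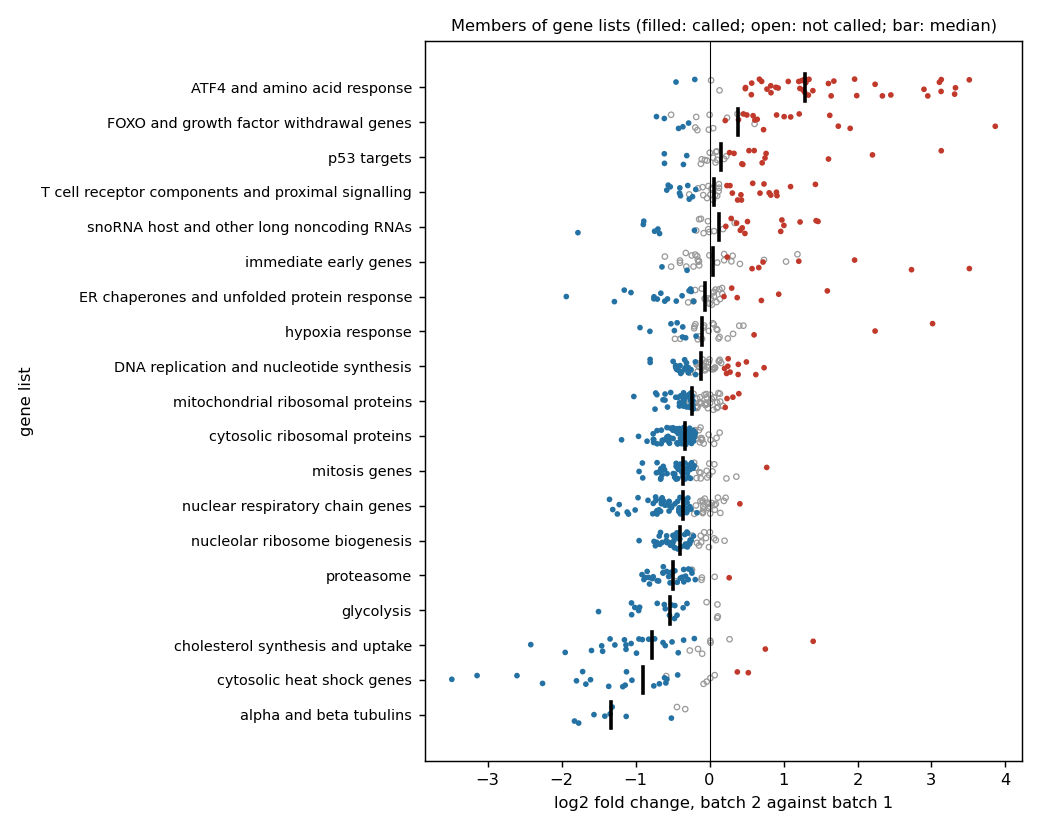
Log2 fold change of batch 2 against batch 1 (x axis) of each tested member of 19 gene lists (y axis), with called members filled (red higher, blue lower), others open, and the median as a bar. The medians run from 1.29 for the ATF4 and amino acid response list to -1.33 for the tubulins.

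Nuclear genes of the respiratory chain fell in 55 of 81 cases (67.9%), with 1 rise and a median of -0.36. The falls covered 22 of 37 genes of complex I, 3 of 4 of complex II, 6 of 10 of complex III, 8 of 11 of complex IV and 15 of 18 of ATP synthase. NDUFS5 was 183, 227, 183 and 179.5 CPM in batch 1 and 86.8, 72.6, 77.6 and 89.1 CPM in batch 2, and COX7B fell by 1.35 on the log2 scale. COX7A2L, which acts in the assembly of supercomplexes, was the member that rose (0.41). Of transcripts of the mitochondrial genome 12 of 26 fell (46.2%) and 0 rose. That share compares with 22.5% of all genes but is near the 46.0% among the most abundant genes. Those that fell included MT-RNR1 (-0.75) and MT-ND6 (-0.58), while MT-CO1 (0.20, adjusted p = 0.0531) was not called. With total-count scaling 9 fell and 2 rose, and MT-CO1 was called higher there (0.33, adjusted p = 0.00386) and in 6 other alternatives, among them DESeq2 (adjusted p = 0.0425) and limma-voom (adjusted p = 0.0416). Mitochondrial transcripts held 3.04% ± 0.0756 of reads in genes in batch 1 and 2.92% ± 0.312 in batch 2 (exact permutation p = 0.571, two-sided).

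Mitosis genes were lower: 42 of 57 fell (73.7%) and 1 rose, with a median of -0.36 and 0 past 2-fold. CCNB1, cyclin B1, was 306, 333, 299 and 317 CPM in batch 1 and 172, 157, 156 and 164 CPM in batch 2. PTTG1 (-0.91), INCENP (-0.71) and PLK1 (-0.66) fell as well. NDC80, of the outer kinetochore, was the exception at 85.6, 80, 90.4 and 84.8 CPM in batch 1 and 142, 148, 149 and 144 CPM in batch 2. DNA replication genes were mixed: 23 of 57 fell (40.4%) and 10 rose, while 14 fell and 17 rose with total-count scaling (median -0.11, and 0.02 with total-count scaling). MCM4 (-0.80), PCNA (-0.49) and MCM2 (-0.45) fell, and E2F2 (0.74) and CDT1 (0.63) rose. CCND2 (1.90) and the inhibitor CDKN1B (0.50) rose, CCND3 (-0.43) fell and CDKN1A was not called, at 1.1 CPM on average.

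Genes associated with growth factor withdrawal and FOXO factors were higher. Of 31 tested, 16 rose (51.6%, against 23.6% of all genes) and 5 fell, or 19 and 3 with total-count scaling, with a median of 0.39. TSC22D3, which encodes GILZ and is also a target of the glucocorticoid receptor, was 0.339, 0.192, 0.748 and 0.625 CPM in batch 1 and 9.05, 7.46, 7.05 and 6.52 CPM in batch 2, a log2 fold change of 3.86. CCND2 was 1.02, 1.92, 1.5 and 1.88 CPM in batch 1 and 6.63, 5.76, 4.81 and 5.59 CPM in batch 2, and FBXO32 (1.62), KLHL24 (1.10) and FOXO1 (0.73) rose. The 5 that fell included IL7R (-0.72), a FOXO1 target in T cells. Of 7 arrestin and MondoA genes 5 rose (71.4%, against 23.6% of all genes). ARRDC4 was 5.77, 5.58, 5.23 and 4.75 CPM in batch 1 and 28.9, 29.2, 30.6 and 37.2 CPM in batch 2. TXNIP was 1.1, 0.77, 1.31 and 1.5 CPM in batch 1 and 2.29, 4.49, 4.81 and 4.19 CPM in batch 2. ARRDC4 was separated by a wide gap from batch 1, and MLX fell by 0.31. Among 28 p53 targets 12 rose (42.9%, against 23.6% of all genes) and 4 fell (14.3%, against 22.5%). SESN2, which is also on the ATF4 list, rose most, followed by TNFRSF10A (2.20) and BBC3 (1.61), while CDKN1A and MDM2 (-0.03) were not called.

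T cell receptor genes were split. Of 40 components and proximal signalling genes 15 rose (37.5%, against 23.6% of all genes) and 10 fell, or 17 and 6 with total-count scaling. The share that fell was near the 22.5% of all genes, so the falls named next describe single genes and not the list. CD3D (-0.58), CD247 (-0.56), CD3G (-0.41), LCK (-0.40) and ZAP70 (-0.39) fell, and TRAC (0.90), FYN (0.68) and PTPN22 (0.83) rose. CD3E was 578, 700.2, 640.5 and 627 CPM in batch 1 and 550.2, 545, 584 and 556 CPM in batch 2. The difference was small, -0.19 on the log2 scale (adjusted p = 0.0342), and was not called with total-count scaling (-0.05, adjusted p = 0.500), with the replicate block (adjusted p = 0.0603), at a mean of at least 5 CPM (adjusted p = 0.0617), without controls 6 and 7 (adjusted p = 0.106) or without any 1 of controls 2, 3, 5, 6 and 8. TRBC1, CD4 and BCL11B were not called. Among identity factors, ID2 (1.53) and IKZF3 (1.37) rose and DNTT (-1.14), the terminal transferase, fell. PDCD1, which encodes the receptor PD-1, was 0.594, 1.15, 1.03 and 0.625 CPM in batch 1 and 5.48, 4.91, 8.57 and 5 CPM in batch 2, with no overlap and a log2 fold change of 2.86. CD40LG fell by 1.37.

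Immediate early genes varied within both batches. EGR1 was 60.5, 13.7, 186 and 149.5 CPM in batch 1 and 77.2, 412, 319 and 35.3 CPM in batch 2, and the difference of 1.03 (SE 0.66, adjusted p = 0.221) was not called. FOS was 6.02, 1.73, 28 and 31.3 CPM in batch 1 and 4.33, 25.9, 33.5 and 1.16 CPM in batch 2, and JUN was 16.4, 16.5, 42.6 and 53 CPM in batch 1 and 24.2, 84.6, 34.2 and 24.8 CPM in batch 2. For EGR1 and FOS, controls 3 and 4 of batch 1 and controls 6 and 7 of batch 2 were high and the other 4 libraries low. EGR3 was 0.509, 0, 1.12 and 2.5 CPM in batch 1 and 1.53, 27.7, 15.4 and 0.931 CPM in batch 2, and its call (3.51, adjusted p = 0.00649) was lost without controls 6 and 7 (0.19, adjusted p = 0.862) and with limma-voom (3.35, adjusted p = 0.0749). CD69, an early activation marker, was 14.6, 7.7, 26.7 and 18.8 CPM in batch 1 and 16.1, 91.5, 46.5 and 14.8 CPM in batch 2; its difference of 1.32 (adjusted p = 0.0379) became -0.18 without controls 6 and 7 (adjusted p = 0.689), and its batches overlapped. The CD69 call was also lost with DESeq2 (adjusted p = 0.117), limma-voom (adjusted p = 0.109) and the replicate block (adjusted p = 0.0723), and without any 1 of controls 1, 2, 4, 6 and 7. NR4A1, another early gene of receptor signalling, measured 6.11, 6.16, 9.72 and 11.1 CPM in batch 1 and 8.67, 30.4, 26.7 and 8.38 CPM in batch 2. Over 34 immediate early genes 8 rose (23.5%, the same as the background of 23.6%) and 2 fell.

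**Figure D5:**
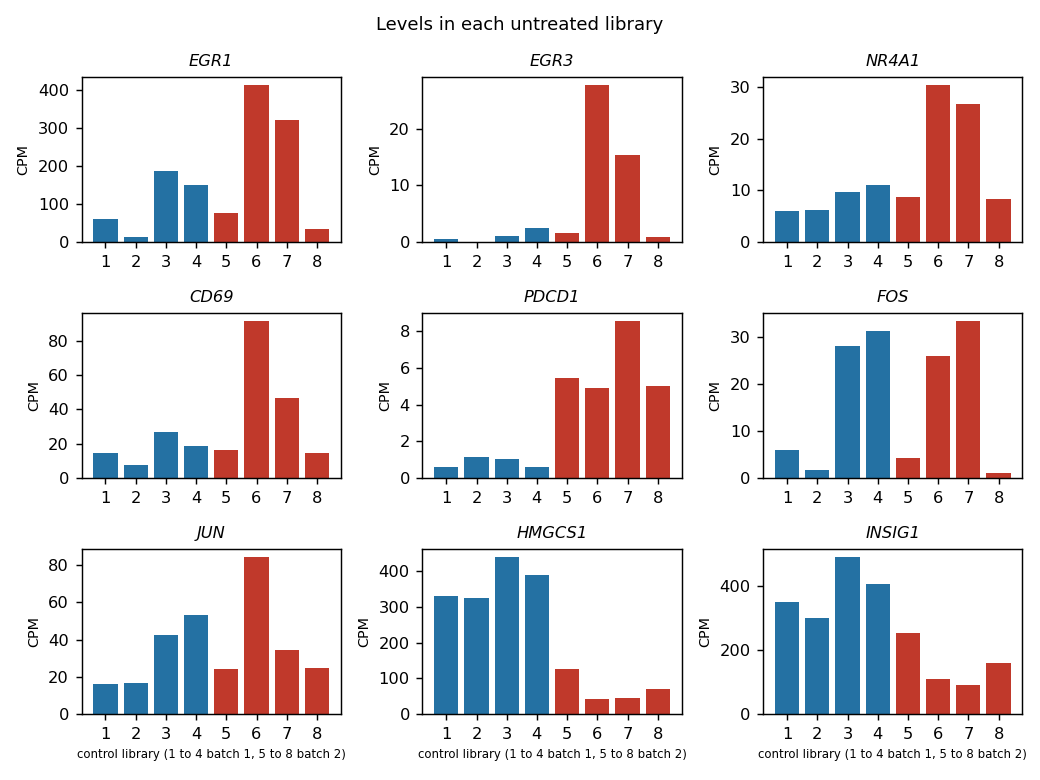
CPM (y axis) of 9 genes in control libraries 1 to 8 (x axis), batch 1 in blue and batch 2 in red. EGR1, EGR3, NR4A1 and CD69 are high in controls 6 and 7 of batch 2, in which HMGCS1 and INSIG1 are lowest, while PDCD1 is high in all 4 libraries of batch 2.

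Interferon and antiviral genes fell in 16 of 43 cases (37.2%) and rose in 7, while 12 fell and 10 rose with total-count scaling (median -0.09, and 0.04 with total-count scaling). BST2 (-0.96) and IFI6 (-0.64) fell, whereas XAF1 (0.77) and PLSCR1 (0.67) rose. In the antigen presentation list 9 of 19 fell (47.4%, near the 46.0% among the most abundant genes), B2M by 0.62, and 1 rose, ERAP1 (0.19), while 5 fell and 4 rose with total-count scaling. Of 18 tested histone genes 4 rose (22.2%, near the background) and 1 fell. Zinc finger genes of the ZNF series rose in 94 of 386 cases (24.4%) and fell in 46 (11.9%), the former near the background. With total-count scaling 130 rose and 27 fell, where 4817 of all 14187 genes rose and 1974 fell. The 130 rises are near that background too.

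The 3 largest rises by the naming rule were in genes with low levels in batch 1. IGSF11, an adhesion molecule of the immunoglobulin family, was 0.255, 0, 0.187 and 0.125 CPM in batch 1 and 8.8, 13.7, 12.1 and 12 CPM in batch 2. BEST1, a chloride channel, was 0.594, 0.577, 0.654 and 0.375 CPM in batch 1 and 9.56, 20.7, 30 and 12 CPM in batch 2. CHRM3-AS2, an antisense RNA, was 0.594, 0.577, 1.03 and 1.38 CPM in batch 1 and 23.6, 27.8, 26.4 and 27.7 CPM in batch 2; whether counting used the strand is not stated in the labels. Their log2 fold changes were 6.03, 5.02 and 4.86. MATN4 (4.26), VLDLR-AS1 (3.94), PTPRM (3.82) and MFAP4 (3.32) were also among the 12 largest rises, and VLDLR-AS1 lies antisense to VLDLR, so their reads may not be told apart. The collagenase gene MMP8 had 0 reads in all 4 libraries of batch 1 and 18, 44, 28 and 35 reads in controls 5 to 8, the 1 gene with 0 reads in one batch and at least 10 in each library of the other. The largest falls included HSPA8, HSPA8P1, HSPA1B, DNAJA1, HMGCS1, HSPH1, PRDX1, HSPA5, UBB and TUBA1C, from -3.48 to -1.83 on the log2 scale.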

How the data were processed

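RNA-seq was done on 8 libraries of untreated Jurkat E6-1 cells, 4 in each of 2 batches. The authors deposited raw read counts per gene, without normalization. STAR 2.7.1a, HTSeq 0.6.1 and hg19 are named in the submitters' processing notes, although 68.0% of the 60662 versioned gene identifiers matched GENCODE release 29, an annotation of GRCh38, so no gene coordinates are given from the counts. The labels and notes used here state neither counting mode nor strand, so overlapping and antisense genes may share reads. Symbols matched 99.5% of identifiers. The 5 rows that name no gene held 43.5% to 57.6% of counted reads and were left out of library sizes and tests.

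Genes passing edgeR's filterByExpr (version 4.0.16, R 4.3.3) on batch were kept, 14187 in all. Counts were scaled with TMM factors and fitted with batch as the only term, by the quasi-likelihood test with Benjamini-Hochberg adjustment over all genes tested, and called at an adjusted p under 0.05. The test was checked on simulated data. Positive log2 fold changes are higher in batch 2, and a size of 1 or more was called 2-fold. The standard error (SE) was taken as the size of the log2 fold change over the square root of F. Library measures were compared by exact permutation, two-sided, whose smallest p with 4 against 4 is 0.0286. Chi-square tests of counts found every pair of libraries within a batch to differ beyond sampling noise, so all 8 were kept. Some pairs were closer than others. Chi-square per degree of freedom was 3.49 for controls 3 and 4, against 5.06 to 7.23 for other pairs of batch 1. In batch 2 it was 2.76 for controls 5 and 8 and 2.75 for controls 6 and 7, against 5.26 to 7.01. Libraries of a batch may therefore not be equally independent, and the reason was not tested. Lists are described by counts and medians, with no set test. Promoter windows and their build come from a RefSeq table.

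The comparison, the members and the lists were chosen with earlier results of these data known. The naming rule took 12 rises and 12 falls, the largest of those called at 5 CPM or more on average with batches that did not overlap, up to 4 members with the smallest p from each described list at 1 CPM or more, genes with 0 reads in one batch and at least 10 in each library of the other, fixed examples, and list members moving against their list. Other genes named were chosen after their values were seen. A few genes the rule took are not reported here. Alternatives were total-count and relative log expression scaling, DESeq2 1.42.0, limma-voom (limma 3.58.1), no filter, a mean of at least 5 CPM, a replicate block, and leaving out single libraries, controls 6 and 7, or controls 1 and 8, in which the most reads were not uniquely aligned.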

Additional observations from a re-analysis of the deposited data

Results flagged for a closer look

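In groups of 4 libraries, a level was marked where 1 library lay far from the other 3 for its distance to the nearest against the whole range (Dixon's test). Of 390 groups looked at, 28 (7.18%) were marked, and chance marks about 1 in 20, or 5%. In batch 1 control 2, the library with the fewest reads in genes (5556553), stood above the other 3 for SARS1 (218 CPM), PSMD2 (539 CPM), MCM4 (608 CPM), CDKN2C (119 CPM), MRPS28 (19.6 CPM), NDUFS5 (227 CPM), ATP5MC1 (131 CPM), SOD1 (528 CPM), FYN (142 CPM) and H4C16 (1.35 CPM). Control 1 stood below them for TMSB4X (379 CPM) and above for SNHG1 (263 CPM). Control 4 was low for PSAP (875 CPM) and CD4 (9.5 CPM). In batch 2 control 5 was high for HSPA8 (277 CPM), HSPA1B (2.17 CPM) and the zinc transporter SLC39A10 (28.7 CPM), and control 6 was high for JUN (84.6 CPM). Control 7 was high for PDCD1 (8.57 CPM) and low for CDKN2C (75.6 CPM), and control 8 was high for SNHG1 (548 CPM) and low for MIR223HG (20.7 CPM).

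Library measures were marked as well. In batch 1, control 1 had 47.2% of counted reads not aligned uniquely, 3.70% ambiguous and 57.6% naming no gene, and control 2 had a TMM factor of 0.938. In batch 2, control 5 had 3.39% of reads in genes on mitochondrial genes and 12.4% on the 100 most abundant genes.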

How the results depend on the processing

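With total-count scaling, 1974 genes were lower in place of 3188 and 4817 higher in place of 3353; nucleolar ribosome biogenesis members that fell numbered 27 in place of 41, and cytosolic ribosomal proteins 40 in place of 68. Without controls 6 and 7, nucleolar ribosome biogenesis members that fell numbered 24, and the CD69 log2 fold change became -0.18; the cause was not tested. In that fit 181 of 188 named genes kept their side of the threshold, and those of them that were called also kept their direction. Genes called in neither fit were counted as kept even where their sign changed. BATF, CD3E, EGR3, H4C16 and HLF lost the call, and FOS was called (-2.67). For the 10 lists recomputed, the other counts of members stayed within 1.5 times of those reported. With 1 library left out, 2794 to 3280 genes were higher and 2722 to 3264 lower. DESeq2 called 3128 higher and 3143 lower. File-name numbers are shared by the batches. Same-number correlations of deviations were -0.00, -0.12, 0.10 and -0.12, against -0.13 to 0.11 for different numbers. No pairing by number was seen, but with 4 libraries a batch these values cannot exclude it. The fit with a replicate block called 3163 higher and 2995 lower. Low-level genes and near-identical copies are the least certain: depth of 5556553 to 15720881 reads limits genes near 1 CPM.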

Other observations

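Values of further gene lists are given here beside the 23.6% of all genes that were higher and the 22.5% that were lower in batch 2. Counts with total-count scaling are to be read against 4817 higher and 1974 lower of 14187 genes. In polyamine and methionine metabolism, 10 of 15 genes fell (66.7%) and 5 rose (33.3%), or 6 and 5 with total-count scaling: MAT2A, which makes S-adenosylmethionine, differed by -1.08 and AMD1, which decarboxylates it, by -1.06 on the log2 scale, whereas the oxidase SMOX rose by 1.36 and the acetyltransferase SAT1 by 0.42. Of 19 clock genes 8 rose (42.1%) and 1 fell, led by the output factor HLF (0.97), the repressor NR1D2 (0.80) and DBP (0.63); without controls 6 and 7, HLF was 0.87 with an adjusted p of 0.0872. In the NF-kB list 8 of 26 rose (30.8%) and 2 fell, or 15 and 1 with total-count scaling, with CYLD, a deubiquitinase, at 0.70 and TRAF3 at -0.60.

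Of 21 genes of the TGF-beta pathway 5 rose (23.8%, near the background) and 3 fell, and SMAD7, its inhibitory SMAD, rose by 3.05, the largest difference of the list. Of 28 JAK-STAT genes 8 rose (28.6%) and 9 fell (32.1%), or 11 and 5 with total-count scaling, with PIM1 at 1.29 and CISH at -0.88. Among 20 metallothionein and zinc genes 4 rose and 5 fell, both near the background, and MT2A differed by -0.67 and MT1F by 2.00; metallothionein genes are similar in sequence, so single values are uncertain. In a list of 48 lysosome and autophagy genes, 10 rose and 13 fell (20.8% and 27.1%, near the background), or 15 and 8 with total-count scaling. The autophagy gene WIPI1 rose by 2.03 and the lysosomal regulator TFEB by 0.82.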
